A study of Homo sapiens with 12 samples.

Results

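The regions flanking the human centromeres are described here in 4 maps of newly synthesised DNA and 2 maps of an acetylated histone. A region belonged to the set when its midpoint lay from 2 Mb before to 5 Mb after the start of the centromere gap of its chromosome in the hg19 genome build. There were 18 such windows, 1 on each of chromosomes 1 to 12 and 16 to 21, with gap starts rounded to 100 kb, so distances to a gap are known only to that precision. In all, 1842 of the 169273 deposited regions (1.09%) were members. They numbered 24 of 1755 BrdU regions in H1 cells after knockdown of EP300 and CREBBP, 56 of 5086 in H1 control cells, 52 of 5743 in IMR90 and 194 of 6272 in Saos-2, and 748 of 65946 H3K18ac regions in H1 and 768 of 84471 in IMR90.

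H1 are human embryonic stem cells, IMR90 are primary lung fibroblasts and Saos-2 is an osteosarcoma line. The 4 BrdU libraries came from 4 µg of DNA that had taken up bromodeoxyuridine, a thymidine analogue, and was pulled down with an antibody to it. The H1 knockdown culture had received siRNAs against EP300 and CREBBP, the H1 control culture a non-targeting siRNA, and both had HA 1077 at 10 µM in the medium and were collected after 72 h. IMR90 and Saos-2 received no siRNA, nor did the H1 and IMR90 cells for H3K18ac, from which 5000000 cells went into each immunoprecipitation. Each group had 1 library, so the spread between replicates is unknown, no test between groups was possible, and the intervals given below cover counting error of regions only. Another 6 libraries are inputs, which were not analysed here.

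A centromere is the chromosome site where the kinetochore forms. In humans it lies in long tandem arrays of satellite repeats, flanked by heterochromatin with few genes, which as a rule replicates late in S phase. Genome builds of the time of hg19 left the arrays out as a gap and held only a part of the satellite copies beside it, so that reads from many copies can be placed on few assembled ones. H3K18ac, an acetylated lysine in the tail of histone H3, is laid down mainly by the paralogous acetyltransferases p300 and CBP, the products of EP300 and CREBBP, at active promoters and enhancers. No hg19 genome, gene annotation or repeat annotation was used here, so members are given by position without sequence or gene names, and their repeat content was not tested.

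Of the 6 lists, 5 were sparser in the windows than elsewhere, and the Saos-2 BrdU list, taken over the whole windows, was not. Leaving out the first 3 Mb after each gap start, which held 6 regions in all lists together, the windows spanned 72 Mb. H3K18ac regions in IMR90 reached 10.7 per Mb there, against 30.5 per Mb over the other 2365 Mb of the same chromosomes, and those in H1 reached 10.4 per Mb against 23.02 per Mb. The BrdU regions of IMR90 numbered 0.722 per Mb in the windows and 2.08 per Mb elsewhere, and those of H1 control 0.778 and 1.81 per Mb. After the knockdown the values were 0.333 per Mb in the windows and 0.593 per Mb elsewhere, from 24 members. These 5 ratios lay between 0.347 in IMR90 BrdU and 0.562 in the knockdown. In Saos-2 the windows held 2.61 regions per Mb, its 6 regions in the first 3 Mb left out, against 2.18 per Mb elsewhere, a ratio of 1.20. This excess did not hold throughout the windows. Outside the last 1 Mb before the gap start, Saos-2 members numbered 1.74 per Mb with those 6 regions included, fewer than elsewhere. As a share of the list, 3.09% (95% Wilson interval 2.69 to 3.55) of Saos-2 BrdU regions were members, against 0.905% (0.691 to 1.19) in IMR90 and 1.10% (0.849 to 1.43) in H1 control. The Saos-2 share stayed above the other 5 in the narrower windows, after merging of neighbours and in the upper 50% of each list by score, with values between 2.09% and 2.41%.

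Parts of the windows held no region of any list, and how much of them the build holds as sequence is not known here, so a gap longer than 3 Mb would lower the densities above. On the side before the gap start alone, Saos-2 had 3.75 regions per Mb, and the ratios to the rest were 1.72 in Saos-2 and between 0.280 and 0.398 in the other 5 lists. When only tiles of 100 kb with a region of any list were counted, 321 in the windows and 18287 in the rest of the 18 chromosomes, the ratios of regions per tile, windows over rest, were 0.602 in IMR90 BrdU, 0.744 in H1 control and 0.975 in the knockdown. For H3K18ac they were 0.783 in H1 and 0.606 in IMR90, and for Saos-2 BrdU the ratio was 2.14.

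**Figure D1:**
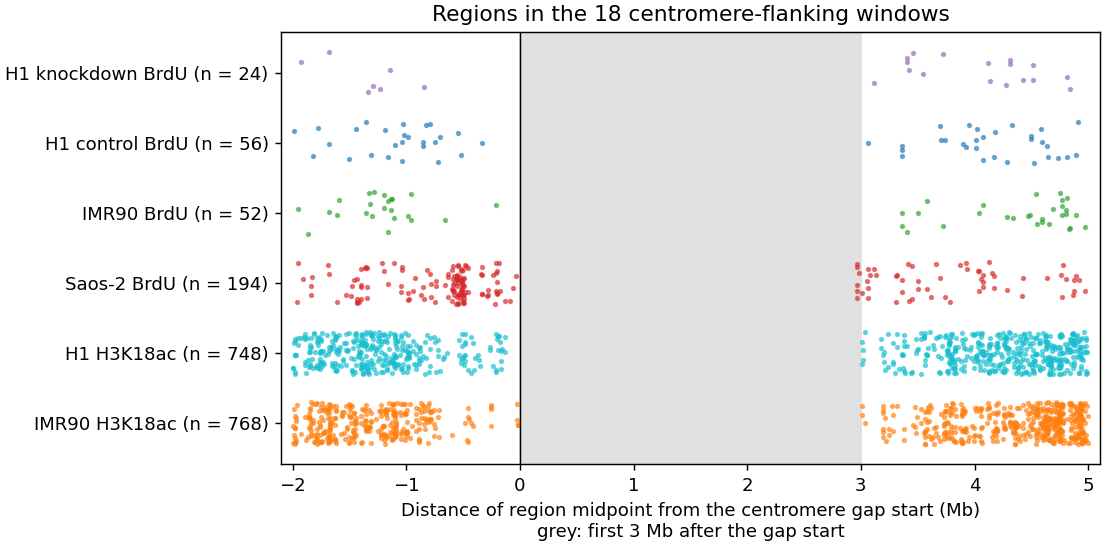
Each point is 1 member region, placed on the horizontal axis by the distance of its midpoint from the centromere gap start in Mb and in the row of its list, with a random vertical offset. The grey band marks the first 3 Mb after the gap start, where only 6 Saos-2 regions lie, at its far edge. The Saos-2 row is crowded in the last 1 Mb before the gap, with 100 of its 194 members.

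The Saos-2 members lay close to the gap and on its short-arm side, whereas members of the other lists were sparser in the last 1 Mb before it than in the rest of the windows. Before the gap start lay 135 of 194 Saos-2 members (69.6%), against 26 of 56 in H1 control (46.4%), 23 of 52 in IMR90 BrdU (44.2%) and 7 of 24 after the knockdown (29.2%). The last 1 Mb before the gap start held 100 Saos-2 members, or 5.56 per Mb, against 2.18 per Mb outside the windows. In the same stretch there were 1 member after the knockdown, 11 in H1 control and 5 in IMR90, each at most 0.611 per Mb. H3K18ac regions numbered 86 in H1 (4.78 per Mb) and 66 in IMR90 (3.67 per Mb), which was 0.2075 and 0.1201 times their density outside the windows. Binned by 500 kb, Saos-2 reached 7.22 per Mb between 1 and 0.5 Mb before the gap start and 3.89 per Mb in the last 500 kb, and it stayed between 1.22 and 1.89 per Mb from 3 Mb after the gap start on. The 100 Saos-2 members came from 12 windows, but 24 were on chromosome 4 and 29 on chromosome 21. Without these 2 windows 47 remained, or 2.94 per Mb.

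**Figure D2:**
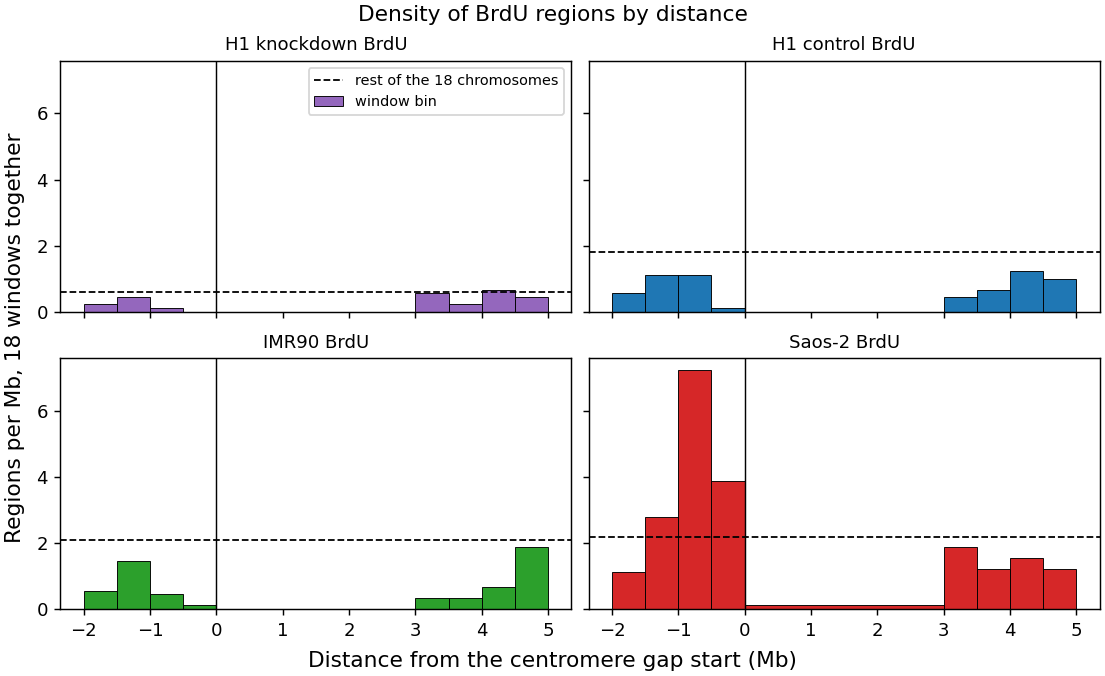
Bars give BrdU regions per Mb in bins of distance from the gap start, over the 18 windows together, in the 4 BrdU lists. The dashed line is the density of the same list in the rest of the 18 chromosomes. In Saos-2 the bins from 1.5 Mb before the gap to the gap start stand above the line, with a peak of 7.22 per Mb, while H1 control and IMR90 lie below their lines in every bin.

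Across the outer edges of the windows all 6 lists had fewer regions just inside than just outside. The 500 kb just inside the 2 edges held 6 knockdown, 14 H1 control, 22 IMR90 and 21 Saos-2 BrdU regions, and the 500 kb just outside held 7, 22, 30 and 36 in that order. For H3K18ac, 259 regions in H1 and 363 in IMR90 lay just inside, and 326 in H1 and 461 in IMR90 just outside.

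The chromosomes contributed unequally. Windows with members of all 6 lists numbered 7, on chromosomes 1, 2, 4, 8, 10, 17 and 20. The windows of chromosomes 17 and 20 held the most members, 299 and 303 over all lists, while that of chromosome 11 held 2. Chromosomes 3 and 11 had no BrdU member, and chromosome 9 had 6 members, all from Saos-2. On chromosomes 1, 9 and 16 no list had a member after the gap start. Saos-2 members were most numerous on chromosome 21, where 37 lay in the window, followed by chromosome 4 with 28 of 277 regions of the chromosome (10.1%). On chromosome 4 the same window held 2 of 81 knockdown regions, 3 of 232 H1 control regions and 1 of 196 IMR90 BrdU regions. IMR90 BrdU members were concentrated on chromosome 20, with 25 of 52 members and 11.3% of the 222 IMR90 regions of that chromosome. Without this window the share of the IMR90 list in the windows fell to 0.472%. The window of chromosome 20 also held 7 of 150 H1 control regions (4.67%), 21 of 269 Saos-2 regions (7.81%), 138 H3K18ac regions in H1 and 109 in IMR90. H3K18ac members in H1 were most numerous on chromosome 17, with 161, and those in IMR90 on chromosome 4, with 151.

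**Figure D3:**
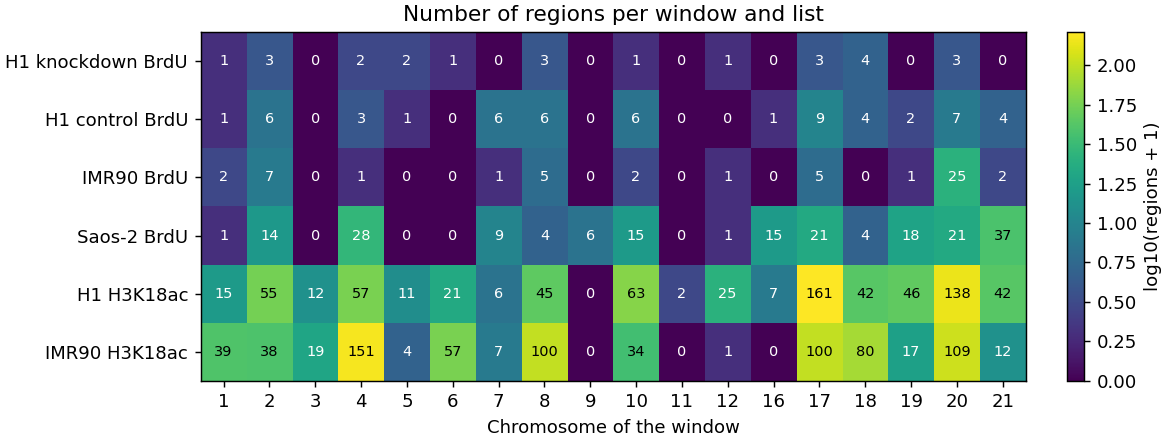
The number of member regions is printed for each list (rows) and window (columns, by chromosome), with shading by log10(regions + 1). Saos-2 BrdU stands out on chromosomes 4, 16, 19 and 21 with 28, 15, 18 and 37 regions, where the other BrdU lists hold at most 4.

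Many Saos-2 members lay in dense runs of short regions. A neighbour of the same list lay within 10 kb of 114 Saos-2 members (58.8%, 51.7 to 65.5), against 29.0% in the whole Saos-2 list. In the other BrdU lists this held for 4 of 24 members after the knockdown (16.7%, 6.68 to 35.9, against 6.10% of its whole list), 8 of 56 in H1 control (14.3% against 19.9% of its whole list) and 10 of 52 in IMR90 (19.2% against 26.3%). Joining neighbours within 10 kb turned the 194 Saos-2 members into 109. The largest run, on chromosome 21 at 10775001 to 10812300, held 25 regions in 37.3 kb. They were 100 to 400 bp long, with a median spacing of 1000 bp, and covered 13.4% of the run. Their scores, a whole number per region of unstated meaning that serves only to rank regions within a list, were 15 to 92, with a median of 37 against 61 for the whole list. Another 2 runs lay on chromosome 4, with 12 regions at 49099301 to 49122900 and 8 at 49145101 to 49158000. A run of 5 regions on chromosome 17 at 25263101 to 25268000 had higher scores, from 61 to 401, and covered 40.8% of its span. It lay 2.97 Mb after the rounded gap start and made up 5 of the 6 regions found in the first 3 Mb. A last run, on chromosome 7 at 57547201 to 57556300, held 5 regions. These runs were chosen after their values had been seen.

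None of the 55 Saos-2 regions in these 5 runs overlapped a region of another list. Of all Saos-2 regions 41.5% did, and of the Saos-2 members 24 of 194 (12.4%). Regions of the same run are neighbours, so the 55 are not separate cases. Other lists had 3 regions within the spans. An H1 control region of 200 bp and score 261, on chromosome 21 at 10781701 to 10781900, lay between Saos-2 regions of the largest run, as did an H1 H3K18ac region at 10793601 to 10793700. The H1 control region there directly adjoined the Saos-2 region at 10781501 to 10781700. Regions that only adjoin were not counted as overlapping. On chromosome 7 an H1 control region of 100 bp, at 57551601 to 57551700, directly adjoined the Saos-2 region at 57551401 to 57551600. Before this H1 control region lay 5 further H1 control members of 100 bp, from 57245101 on. The 5 tiles of 100 kb with the most Saos-2 members, on chromosomes 4, 16 and 21, held 59 of them (30.4%), beside 1 region of the other BrdU lists and 5 H3K18ac regions. Without those tiles 2.17% of the Saos-2 list remained in the windows.

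Counted as an overlap of at least 1 bp, recurrence between lists was lower for BrdU members than for the lists as a whole. Of the Saos-2 members, 12 of 194 (6.19%, 3.57 to 10.5) overlapped an H1 control region, against 26.0% of all Saos-2 regions, and 10 (5.15%, 2.82 to 9.23) an IMR90 BrdU region, against 23.5%. Without the 5 densest tiles these shares were 8.89% and 7.41%. In the upper 50% of the Saos-2 list by score, 12 of 75 members (16%, 9.40 to 25.9) overlapped H1 control, against 46.3% of all regions in that part of the list. Of the H1 control members, 3 of 56 (5.36%, 1.84 to 14.6) overlapped IMR90, against 20.5% of all H1 control regions, and 12 (21.4%, 12.7 to 33.8) overlapped Saos-2, against 34.0%. Of the IMR90 members, 3 of 52 (5.77%) overlapped H1 control, against 18.1% of all IMR90 BrdU regions, and 10 (19.2%, 10.8 to 31.9) overlapped Saos-2, against 26.8%, so that this last interval included the share of the whole list. Some members that count as not overlapped directly adjoin a region of another list. With 2 kb around midpoints, 16 of 56 H1 control members (28.6%, 18.4 to 41.5) and 14 of 52 IMR90 members (26.9%, 16.8 to 40.3) overlapped Saos-2. Of the Saos-2 members, 17 (8.76%) then overlapped H1 control and 14 (7.22%) IMR90. Shares of the whole lists were not computed at this setting. Neighbouring members are not independent, so these intervals are narrower than the true error.

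In Saos-2 the members closest to the gap had a still lower share of overlaps, although the intervals of near and far members overlap. Within 500 kb before the gap start and up to 3.5 Mb after it lay 58 Saos-2 members, of which 2 (3.45%, 0.951 to 11.7) overlapped any other BrdU list. Of the 136 members farther away 17 did (12.5%, 7.95 to 19.1), and of the whole Saos-2 list 36.1%. In H1 control 12 of 56 members (21.4%, 12.7 to 33.8) overlapped any other BrdU list, against 38.2% of the whole list, and in IMR90 10 of 52 (19.2%, 10.8 to 31.9) did, against 30.0%. After the knockdown it was 1 of 24 (4.17%, 0.739 to 20.2), against 15.4%. The IMR90 and knockdown intervals included the shares of their whole lists. At the scale of 100 kb tiles, 32 of the 93 tiles with a Saos-2 member (34.4%, 25.6 to 44.5) held a region of no other list, against 6.81% of the Saos-2 tiles outside the windows. The same share was 5 of 21 tiles after the knockdown (23.8% against 6.54%), 4 of 47 in H1 control (8.51% against 4.59%) and 2 of 40 in IMR90 BrdU (5.0% against 2.74%), and the intervals of the H1 control and IMR90 shares included those outside the windows.

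Members that recurred were the longer and higher-ranking ones. In Saos-2, 24 of 194 members (12.4%) overlapped any other list, against 41.5% of the whole list. These 24 had a median length of 500 bp and a median percentile of 75.5 by score within their list. The 170 without an overlap had 200 bp and 36.1. In H1 control, where 41.2% of the whole list overlapped any other list, the 14 of 56 overlapped members stood at a median percentile of 73.8 and the other 42 at 37.0. In IMR90 BrdU, where 35.0% of the whole list overlapped any other list, the median percentiles were 79.4 for 15 overlapped members and 35.0 for the other 37. The link of score with overlap was not particular to members. Of all Saos-2 regions 26.0% overlapped H1 control, and 46.3% did in the upper 50% by score. BrdU members as a whole ranked somewhat low in their lists, with median percentiles of 47.1 after the knockdown, 42.1 in H1 control, 43.2 in IMR90 and 41.5 in Saos-2, beside 49.5 to 50.5 for the rest of each list.

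After the knockdown no member recurred in the control. The knockdown list held 24 members over 2500 bp and the control list 56 over 8800 bp, which is 0.429 times the number and 0.284 times the length. For the whole lists these ratios were 0.345 and 0.196. Of the 24 knockdown members 0 overlapped an H1 control region, which allows a share of up to 12.5% by the limit of 3 counts and 13.8% by the Wilson interval, and 9.06% of all knockdown regions did. Of the 56 control members 0 overlapped a knockdown region, which allows up to 5.36% by 3 counts and 6.42% by the Wilson interval, against 3.07% of the whole control list, so a share lower than in the whole lists was not detectable with these numbers. The nearest control region lay at a median of 314 kb from a knockdown member and at 7.80 kb in the closest case, on chromosome 17. When the control list was cut to its 1755 regions of highest score, 13 control members remained, so that the knockdown list then had 1.85 times as many. Single windows of 100 bp made up 23 of the 24 knockdown members (95.8%), against 85.7% of the rest of that list. This length was thus common in the whole knockdown list and not particular to members. The remaining member, on chromosome 2, spanned 96730201 to 96730400 and so measured 200 bp. It had the highest score of the 24, 162, and was the only knockdown member found in another list, inside a Saos-2 region. The next by score, on chromosome 20 at 24470201 to 24470300, scored 85, and the third, from 95702501 to 95702600 on chromosome 2, scored 70. Both were 100 bp long and in no other list.

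**Figure D4:**
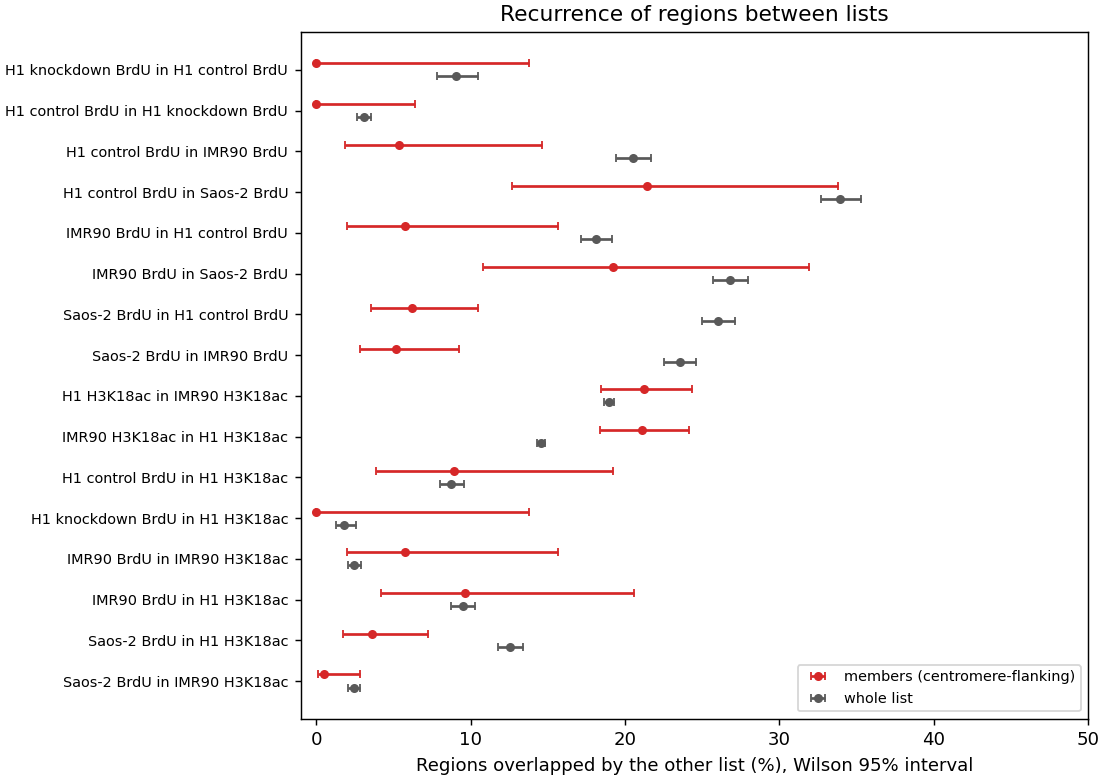
For 16 ordered pairs of lists, the percentage of regions of the first list that overlap the second by at least 1 bp is given for the centromere-flanking members (red, upper) and for the whole list (grey, lower), with Wilson 95% intervals. The red points of the Saos-2 rows in H1 control and IMR90 BrdU, at 6.19% and 5.15%, lie far left of the grey ones at 26.0% and 23.5%, and H3K18ac members lie at or right of theirs.

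H3K18ac members recurred between the cell lines at least as often as H3K18ac regions elsewhere. Of the H1 members, 159 of 748 (21.3%, 18.5 to 24.3) overlapped an IMR90 region, against 19.0% of the whole H1 list. Of the IMR90 members, 162 of 768 (21.1%, 18.4 to 24.1) overlapped an H1 region, against 14.5% of the whole IMR90 list. In the narrower windows, from 1 Mb before to 4 Mb after the gap start, these shares were 26.4% and 29.5%. Of the members nearest the gap, within 500 kb before its start or 3 to 3.5 Mb after it, 10 of 68 in H1 (14.7%, 8.19 to 25) and 10 of 40 in IMR90 (25%, 14.2 to 40.2) overlapped the other cell line. H1 members ranked a little above the rest of their list, with a median percentile of 57.2 against 49.8, and 95 of them (12.7%) were in its upper 10% by score. IMR90 members had a median percentile of 52.2 against 49.7. The median length was 300 bp for IMR90 members and for the rest of that list, and 200 bp for H1 members against 100 bp for the rest.

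Overlap of the 2 assays was about as rare among the loci of the windows as among all loci. Merging overlapping regions of all lists gave 1636 loci in the windows, of which 14 (0.856%, 0.510 to 1.43) held both BrdU and H3K18ac, against 0.924% of all 150808 loci. Relative to loci with BrdU, however, these were 14 of 302 (4.64%, 2.78 to 7.63), against 9.28% of all BrdU loci. Without the Saos-2 list, 10 of 1468 loci in the windows (0.681%) held both assays, against 0.683% outside, and 5 (0.341%) were in at least 3 lists, against 0.323% outside. Of the BrdU loci in the windows, 20 of 302 (6.62%, 4.33 to 10.0) were in at least 2 BrdU lists, against 16.1% of all BrdU loci, and 4 (1.32%, 0.516 to 3.36) were in all 3 cell lines, against 6.23%. H3K18ac loci found in both cell lines numbered 154 of 1348 (11.4%, 9.83 to 13.2), against 8.49% of all H3K18ac loci. At least 3 lists shared 7 loci (0.428%, 0.207 to 0.881), against 0.979% of all loci. No locus in the windows was in 5 or 6 lists, and elsewhere 43 of 149172 loci (0.0288%) were, a share too small to be seen among 1636 loci.

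By single pairs, 5 of 56 H1 control members (8.93%, 3.87 to 19.3) overlapped H1 H3K18ac, close to the 8.75% of the whole list, and 0 of 24 knockdown members did, against 1.82% of the whole list. Neither H3K18ac list overlapped a knockdown member, against 3.59% of all knockdown regions. Each of these values of 0 of 24 allows up to 13.8% by the Wilson interval, so a lower share was not detectable. In IMR90, 3 of 52 BrdU members (5.77%, 1.98 to 15.6) overlapped H3K18ac of the same cells, against 2.44%, and 5 (9.62%) overlapped H1 H3K18ac, against 9.49%. Saos-2 members overlapped H1 H3K18ac in 7 cases (3.61%, 1.76 to 7.26), against 12.6% of the Saos-2 list, and IMR90 H3K18ac in 1 case (0.515%), against 2.42%. Seen from H3K18ac, 13 of 748 H1 members (1.74%) overlapped any BrdU list, against 1.82% of the whole H1 list, and 3 of 768 IMR90 members (0.391%) did, against 0.447%.

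Of the 1636 loci in the windows 3 were in 4 lists, against 357 of all 150808 loci. Each of the 3 was in the H1 control, IMR90 and Saos-2 BrdU lists and in H1 H3K18ac. None of them was in the knockdown list or in IMR90 H3K18ac. On chromosome 20 at 25047801 to 25048600, 1.35 Mb before the gap start, the H1 control region of 500 bp ranked 302 by score and the Saos-2 region of 700 bp ranked 174, the highest rank of any member in either list. The IMR90 region there had 100 bp. On chromosome 4 at 53065601 to 53066100, 3.37 Mb after the gap start, the IMR90 and Saos-2 regions coincided exactly and the H1 control region ended 100 bp earlier. This was the highest-scoring BrdU member of IMR90, at rank 201, and rank 405 in H1 control. On chromosome 17 at 21139101 to 21139700, 1.16 Mb before the gap start, the regions measured 400 bp in H1 control, 300 bp in IMR90 and 600 bp in Saos-2. H3K18ac regions at these 3 loci were 100 or 200 bp long, at percentiles from 56.4 to 86.3 of the H1 list.

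Against 1076 of all 150808 loci, another 4 loci in the windows were in 3 lists. One on chromosome 1 at 120188901 to 120190700 held H3K18ac of both cell lines, with 1500 bp in H1 at rank 393 by score, and an H1 control BrdU region of 100 bp. A second, on chromosome 17 at 26988601 to 26989700, also held H3K18ac of both cell lines, with an IMR90 BrdU region of 200 bp. The third, on chromosome 20 at 25289301 to 25291600, was an IMR90 H3K18ac region of 2300 bp, rank 422, with single BrdU windows of IMR90 and Saos-2 near its ends. The fourth, on chromosome 17 at 21310401 to 21311200, held BrdU only, 800 bp in Saos-2 and 100 bp in H1 control and in IMR90. Next by summed score percentile were 3 H3K18ac loci of both cell lines. Chromosome 20 carried a locus of 2700 bp from 30192301 to 30195000, which was a single region in IMR90 and 3 regions in H1. Chromosome 17 carried one of 3900 bp from 27069701 to 27073600, a single region in H1 with 3 IMR90 regions. The locus from 54341801 to 54345200 on chromosome 4 measured 3400 bp.

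The highest-scoring members of the other lists fell partly on these loci and partly alone. The second H1 control member, of 800 bp on chromosome 18 at 13822901 to 13823700, was also in Saos-2. In IMR90 BrdU the third member, on chromosome 17 at 25805901 to 25806200, was in no other list. In Saos-2 the second, of 2200 bp on chromosome 19 at 28772401 to 28774600, overlapped an H1 control region of 100 bp, and the third, of 1600 bp on chromosome 21 at 10084901 to 10086500, overlapped none.

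Very high H3K18ac scores appeared at single places beside the gaps of chromosomes 6 and 1 in IMR90. The highest-scoring IMR90 member, on chromosome 6 at 58778201 to 58779200, had a score of 3268 and rank 14 in the list of 84471, and lay about 21.3 kb before the rounded gap start. Among the 1630 IMR90 regions of its length of 1000 bp it had the highest score, with a median of 220 for that length. The second, on chromosome 1 at 121484601 to 121485400, had a score of 2257, rank 55, and was the highest of 2704 regions of 800 bp, where the median was 164. Beside the first lay regions at 58777301 to 58777600 and at 58776601 to 58776800, which scored highest among 10095 regions of 300 bp and 14119 regions of 200 bp. These 4 were the only IMR90 H3K18ac members in the last 100 kb before a gap start, and the only members of that list to rank first at a length shared by at least 100 regions. None overlapped a region of any other list, H1 H3K18ac and IMR90 BrdU included. Lack of overlap was usual in this list, where 14.8% of all regions and 21.4% of the members overlapped any other list. In the same 100 kb the Saos-2 list had 3 members and the other 4 lists had 0.

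A like value was found on chromosome 7 at 61969001 to 61969500, 3.87 Mb after the gap start, where an IMR90 H3K18ac region scored 985 and ranked 2 of 5646 regions of 500 bp, again in no other list. In H1, the member of highest score, on chromosome 21 at 9825401 to 9826800, scored 2076, rank 2 in its list, and was first of 114 regions of 1400 bp, with a median of 469.5. It lay 1.47 Mb before the gap start, was absent from IMR90 H3K18ac and overlapped a Saos-2 BrdU region of 500 bp. The second H1 member, of 3200 bp on chromosome 17 at 27070401 to 27073600, overlapped IMR90 H3K18ac. The third, on chromosome 5 at 44809101 to 44809900, ranked 5 of 805 regions of 800 bp and was in no other list. No BrdU member was first at a length shared by at least 100 regions of its list, and 1 IMR90 member ranked second. The BrdU lists had only 24 to 190 members at such lengths, over 2 to 9 lengths per list. H3K18ac had 747 members over 15 lengths in H1 and 767 over 26 in IMR90. First ranks of BrdU members would thus be rare in any case, and no contrast with H3K18ac can be drawn. In the last 1 Mb before the gap the median percentile at equal length was 60.2 for 11 H1 control members, 86.8 for 5 IMR90 BrdU members and 39.0 for 100 Saos-2 members. For H3K18ac it was 72.6 for 86 members in H1 and 50.8 for 66 in IMR90. Over all members it lay between 41.4 in Saos-2 and 54.4 after the knockdown.

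**Figure D5:**
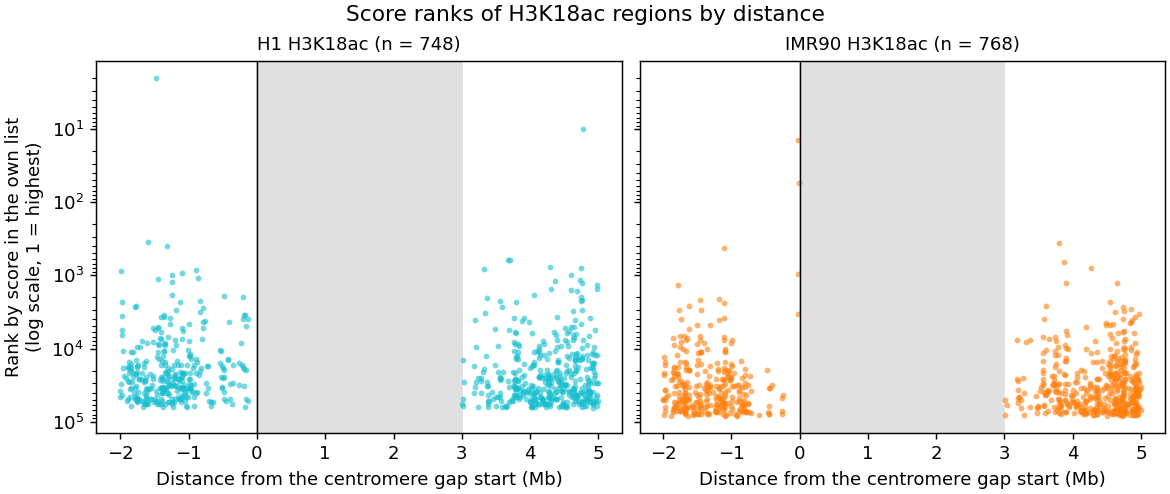
Each point is an H3K18ac member, placed by its distance from the gap start in Mb and by its rank by score in its own list on a log axis, with the highest scores at the top. In IMR90 the points at ranks 14 and 55 lie within 100 kb before the rounded gap start, and in H1 the point at rank 2 lies 1.47 Mb before it.

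The 5 densest tiles of 100 kb over all lists were mostly tiles of H3K18ac. The first, on chromosome 20 at 30100001 to 30200000, held 21 H3K18ac regions in H1 and 17 in IMR90, with 1 BrdU region each in IMR90 and Saos-2. On chromosome 17 at 21100001 to 21200000 there were 18 in H1 and 12 in IMR90, and 1 BrdU region each in H1 control, IMR90 and Saos-2. The tile on chromosome 6 at 57100001 to 57200000 had 25 in IMR90 and 2 in H1, and that on chromosome 4 at 54400001 to 54500000 had 18 in IMR90 and 6 in H1, both without BrdU. The last, on chromosome 20 at 25200001 to 25300000, had 13 in IMR90 and 4 in H1, with 5 BrdU regions in IMR90 and 1 in Saos-2. By contrast, the densest Saos-2 tile, on chromosome 4 at 49100001 to 49200000, held 20 Saos-2 BrdU regions and none of any other list.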

How the data were processed

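The deposited files are 6 lists of regions, 1 library each. Bowtie 0.12.7 and the build hg19 are named in the submitters' processing notes. For the region caller, its threshold, multiply aligned reads and the use of inputs, details were not given in the sources used here. Depth is unknown. Regions lie on a grid of 100 bp windows. The whole number deposited with each region was treated as the authors' score, of unstated meaning, and ranked regions within a list only.

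Analyses used Python 3.11.15, numpy 2.4.6, pandas 2.3.3, scipy 1.17.1 and matplotlib 3.10.9. Overlap meant at least 1 bp, loci were overlapping regions joined over all lists, and a ratio is members per Mb over the rest of the same chromosomes. Shares have Wilson 95% intervals. Overlaps and window membership were tested on simulated regions. Named regions were the 10 loci with most lists, the 3 members of highest score per list and the 5 densest 100 kb tiles. The members, lists and comparisons were chosen with earlier results of these data known. Near-gap splits, equal-length ranks, Saos-2 runs and the alternatives without Saos-2, its 5 densest tiles or near-gap members were chosen after seeing the data.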

Additional observations from a re-analysis of the deposited data

How the results depend on the processing

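The caller, its threshold and the depth behind the lists are unknown, so absence from a list is no measure of absent signal. No paired analysis was possible because each group had 1 library. The cause of a change was not tested unless the alternative's construction gives it. Among values recomputed with another choice, 97 stayed within their interval, or within 1.5 times for counts, and 54 did not. With the choices made after seeing the data, a further 15 stayed and 3 did not.

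The windows from 1 Mb before to 4 Mb after the gap start, smaller by construction, held 0.456% of knockdown, 0.413% of H1 control, 0.192% of IMR90 and 2.14% of Saos-2 BrdU regions, and 0.315% of H1 and 0.217% of IMR90 H3K18ac regions. In the upper 50% by score the shares were 0.785% in H1 control, 2.41% in Saos-2 and 1.30% in H1 H3K18ac. Merging within 10 kb gave 2.09% in Saos-2, 1.26% in H1 H3K18ac and 1.06% in IMR90 H3K18ac. Leaving out the window with most members gave 0.472% in IMR90 BrdU (chromosome 20), 2.52% in Saos-2 (chromosome 21), 0.892% in H1 H3K18ac (chromosome 17) and 0.732% in IMR90 H3K18ac (chromosome 4). By covered bases the shares were 0.817% in H1 control, 0.666% in IMR90 and 2.52% in Saos-2 BrdU, and 0.824% in IMR90 H3K18ac. Without members next to the gap 2.19% of Saos-2 BrdU and 1.03% of H1 H3K18ac regions remained, and without the 5 densest tiles 2.17% of Saos-2.

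Among overlaps, the upper 50% by score of both lists gave 15.0% for H1 control members in IMR90 and 50% in Saos-2, 45.5% for IMR90 in Saos-2, 13.2% for Saos-2 in H1 control and in IMR90, 7.89% for Saos-2 in H1 H3K18ac and 0% for Saos-2 and IMR90 BrdU in IMR90 H3K18ac. An overlap of 50% gave 3.09% for Saos-2 in H1 control, 16.6% for H1 in IMR90 H3K18ac and 16.02% for the reverse, 3.57% for H1 control in H1 H3K18ac and 1.03% for Saos-2 in H1 H3K18ac. Merging within 10 kb gave 12.8% for Saos-2 in H1 control, 28.0% and 40.4% for H3K18ac of H1 in IMR90 and the reverse, and 21.7% for IMR90 BrdU and 14.7% for Saos-2 in H1 H3K18ac. Windows of 2 kb around midpoints gave 29.1% and 28.8% for H3K18ac of H1 in IMR90 and the reverse, and 8.25% for Saos-2 in H1 H3K18ac. The narrower windows gave 2.24% for Saos-2 in IMR90, 26.4% and 29.5% for H3K18ac, 0.746% for Saos-2 in H1 H3K18ac and 0% for Saos-2 and IMR90 BrdU in IMR90 H3K18ac.

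The knockdown list had 0.429 times the members of the control, but 1.85 times with as many control as knockdown regions. Loci of both assays in the windows numbered 76 when regions within 10 kb were joined (11.9% of loci, 13.9% outside), 30 within 1 kb (2.71% and 3.70%) and 8 in the upper 50% by score (0.952% and 1.06%), and loci of at least 3 lists numbered 38, 13 and 4.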
